A study of Mus musculus with 14 samples.

Results

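The proteasome genes described here are the constitutive subunits and regulators of the proteasome. They were chosen by symbol, as every listed gene named Psma, Psmb, Psmc, Psmd or Psme with a number, less the immunoproteasome subunits Psmb8, Psmb9 and Psmb10. The rule found 40 genes of the 15036 listed in the series: 8 of the alpha ring, 8 of the beta ring, 6 ATPases of the base, 14 other base and lid proteins and their assembly factors, and 4 activators. All 40 were listed without IFN-beta and 38 with it. The tests covered 38 genes in either stimulation. Psma8, a testis alpha subunit, was at 0 in every library of the table that lists it, and Psmb11, the thymic catalytic subunit, averaged 6.60 ± 0.54 normalized counts in Morrbid-/- libraries and 5.52 ± 2.56 in wild type (SD, n = 3 each), below the minimum of 10 for testing.

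The libraries came from naive CD8 T cells (CD62L high, CD44 low) of C57BL/6 mouse spleens, activated in culture over 6 h by plate-bound anti-CD3 and soluble anti-CD28, each at 1 µg/mL. Morrbid-/- cells lack Morrbid, a long non-coding RNA gene near Bcl2l11, and wild-type cells carry it; the labels used here do not describe the deletion. The groups were Morrbid-/- with IFN-beta at 20 ng/mL (4 libraries), wild type with IFN-beta (4), Morrbid-/- without IFN-beta (3) and wild type without it (3). The labels do not say that replicates were separate animals or cultures, so every p-value measures only the spread between these libraries, which may be technical.

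The proteasome is the protease that degrades proteins tagged with ubiquitin and supplies most of the peptides shown on MHC class I. Its core is a barrel of alpha rings, which gate the entrance, around beta rings, which hold the protease sites. The regulatory particle caps the barrel: its base unfolds proteins with ATPases, and its lid removes ubiquitin. Activators open the gate without ATP or ubiquitin, and in many cell types interferon-gamma raises the PA28 activator and the immunoproteasome subunits.

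Reads per library, recovered from the normalized values, ranged from 7132515 to 7355337 in Morrbid-/- libraries and from 5788070 to 6918633 in wild type with IFN-beta. Without IFN-beta they ranged from 1747634 to 2443158 in Morrbid-/- libraries and from 2360619 to 2963149 in wild type. Morrbid, listed as Gm14005 in the table without IFN-beta only, stood at 7.10, 5.24 and 7.16 normalized counts in Morrbid-/- libraries, against 1.79, 4.16 and 1.53 in wild type. These levels of 2 to 7 reads a library are too low to check the labels, and they do not go in the direction of the deletion. Bcl2l11 was lower in Morrbid-/- libraries with IFN-beta, at 412 ± 58.2 against 665 ± 77.3 normalized counts (SD, n = 4 each; limma, adjusted p = 3.14e-05). Without IFN-beta it averaged 299.96 ± 27.7 in Morrbid-/- libraries and 388.8 ± 68.6 in wild type (SD, n = 3 each). There the libraries did not overlap either, but the gene was not called (limma, adjusted p = 0.424). The CD8 T cell marker genes summed to 7746 to 8700 in Morrbid-/- libraries and 8221 to 8801 in wild type with IFN-beta, and to 3494 to 3968 and 3806 to 4487 without it. All 7 markers leaned lower in Morrbid-/- libraries in both stimulations (median log2 difference -0.11 with IFN-beta and -0.16 without), and none was called. The smallest p was that of Cd3d without IFN-beta (log2 difference -0.40, limma, adjusted p = 0.378). Summed over each list, the B cell, CD4 T cell, NK cell and myeloid markers stayed at or below 28.4 in any library; Ncr1 was at 0 without IFN-beta, and Cd4, Ms4a1 and the erythroid markers were not listed. In bulk RNA, fewer cells of a type and less RNA per cell cannot be told apart.

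The upstream sequences of the genes that fell are shown first, with that of Psmc6, which was not called, beside them. Each line runs 5′ to 3′ on the gene's strand and holds the part of the 250 bases before the start listed in RefSeq (GRCm38.p6) that lies outside annotated exons. Of the 5 genes called lower in Morrbid-/- cells with IFN-beta, 4 had such a part, of 202 bases for Psma5, 248 for Psma3, 247 for Psmb4 and 238 for Psme2; the window of the fifth, Psma4, lay within an annotated exon. Capitals mark the CCAAT box in Psma3 and, in Psmc6, the core of the antioxidant response element (ARE), the site bound by Nfe2l1, a transcription factor of proteasome genes.
Psma5, chr3:108256676-108256877, plus strand: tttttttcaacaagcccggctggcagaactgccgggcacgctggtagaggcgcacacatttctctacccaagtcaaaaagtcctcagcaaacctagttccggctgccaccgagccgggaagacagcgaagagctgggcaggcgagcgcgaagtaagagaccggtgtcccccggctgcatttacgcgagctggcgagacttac
Psma3, chr12:70974373-70974620, plus strand: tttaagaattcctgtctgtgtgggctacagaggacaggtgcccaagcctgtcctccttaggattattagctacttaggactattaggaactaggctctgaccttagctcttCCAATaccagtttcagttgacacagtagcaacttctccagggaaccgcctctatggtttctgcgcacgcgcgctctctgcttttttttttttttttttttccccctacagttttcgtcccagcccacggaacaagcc
Psmb4, chr3:94886962-94887208, minus strand: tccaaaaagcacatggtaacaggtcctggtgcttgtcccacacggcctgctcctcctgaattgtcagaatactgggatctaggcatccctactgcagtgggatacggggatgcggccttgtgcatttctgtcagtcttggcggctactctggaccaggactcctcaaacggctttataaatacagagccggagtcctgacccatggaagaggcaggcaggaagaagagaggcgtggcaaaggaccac
Psme2, chr14:55591114-55591351, minus strand: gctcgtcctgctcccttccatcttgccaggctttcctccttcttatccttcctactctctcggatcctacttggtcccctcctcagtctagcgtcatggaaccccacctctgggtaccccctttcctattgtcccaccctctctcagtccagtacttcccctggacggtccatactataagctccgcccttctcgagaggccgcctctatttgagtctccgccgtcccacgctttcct
Psmc6, chr14:45329574-45329787, plus strand: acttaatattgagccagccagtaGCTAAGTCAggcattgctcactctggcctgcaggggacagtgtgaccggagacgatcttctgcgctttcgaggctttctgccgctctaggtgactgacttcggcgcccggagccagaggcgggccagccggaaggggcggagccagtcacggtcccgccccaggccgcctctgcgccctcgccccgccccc
The 3 motifs were searched on both strands of the whole 250 bases, and each was counted whether or not its match overlapped that of another. RefSeq windows were at hand for 33 of the 40 genes and for 27025 promoters in all. The ARE core TGACNNNGC was found for 5 of the 33 (Psmb5, Psmb6, Psmc6, Psmd9 and Psmd12), which is 15.2%, against 10.1% of all promoters. None of these 5 genes passed the test in either stimulation. With IFN-beta their log2 differences were 0.33 for Psmb5, 0.01 for Psmb6, -0.23 for Psmc6, 0.08 for Psmd9 and 0.01 for Psmd12. Psmc6, the one printed above, was thus the only one of them below 0. The core of the interferon-stimulated response element, GAAA repeated after any 2 bases, was found for Psmb3, Psmd4 and Psmd9, or 9.09%, against 3.04% of all promoters. CCAAT was found for 13 genes, or 39.4%, against 34.5% of all promoters; of the genes that fell, Psma3 alone held it. The window of Psma3 lies inside the gene span that RefSeq gives, since another transcript starts before it.

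The levels of the genes were compared per kilobase of exon, as normalized counts averaged over the libraries of a table. With IFN-beta, Psme1 had the highest level at 7554 per kb and Psme2 followed at 2117, both subunits of PA28. Psma4 came next at 801. The lowest were Psmd9 at 24.7, Psmd5 at 29.4 and Psmb5 at 36.4 per kb. Psmd9 and Psmd5 are assembly chaperones of the base, and Psmb5 is the subunit with chymotrypsin-like activity. Of the 75-base stretches of their transcripts, 36.8% for Psmb5 and 24.3% for Psmd9 also occur in another gene. How the counting treated such reads is not known, so the levels of Psmb5 and Psmd9 are uncertain. Class medians with IFN-beta were 215 for the alpha ring, 90.8 for the beta ring, 131 for the ATPases, 115 for the other base and lid genes and 1186 for the activators. Without IFN-beta the highest were again Psme1 at 897, Psme2 at 307 and Psma4 at 257 per kb, and the lowest Psmd9 at 12.7.

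**Figure D1:**
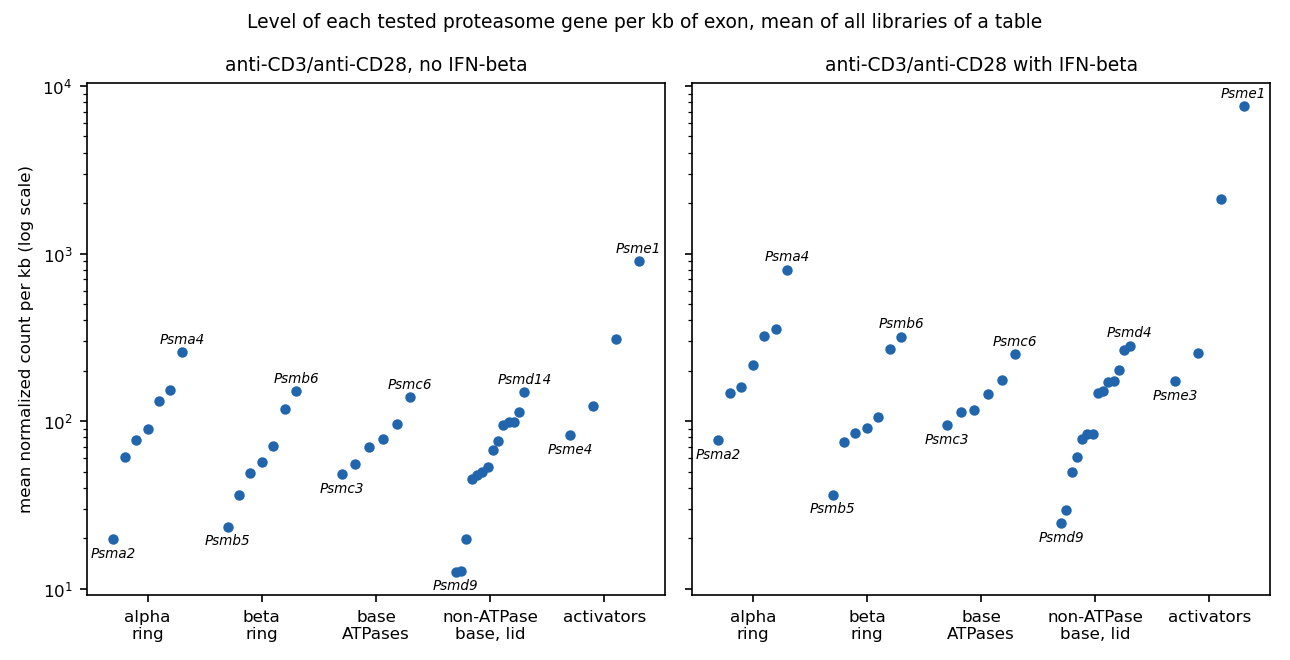
Mean normalized count per kilobase of exon (log axis) of each of the 38 tested proteasome genes, averaged over the 6 libraries without IFN-beta (left) and the 8 with it (right); points are genes, ordered by level within each class, and the lowest and highest of a class are named. Psme1 stands highest in both panels, at 897 and 7554 per kb, and Psmd9 lowest, at 12.7 and 24.7.

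With IFN-beta, 5 of the 38 proteasome genes fell in Morrbid-/- cells and none rose (limma, Benjamini-Hochberg adjusted p under 0.05). They were 3 alpha subunits (Psma3, Psma4, Psma5), the beta subunit Psmb4 and the PA28 subunit Psme2. No gene of the regulatory particle passed. Of all genes tested, 4.84% were called lower and 5.25% higher, so 13.2% of the proteasome genes stood against 4.84% for the lower direction; with libraries scaled to equal totals, the calls over all genes split into 730 higher and 344 lower, against 523 and 482, and 2 proteasome genes stayed called. The median difference of the 38 was 0.00 on the log2(normalized count + 1) scale, which understates changes of low genes, and that of all genes was also 0.00. The 38 estimates ran from -0.64 for Psma5 to 0.33 for Psmb5. Libraries of the genotypes did not overlap for 6 genes lower in Morrbid-/- cells (Psma3, Psma4, Psma5, Psmb4, Psmd5, Psmd11), where 7.6% of all genes did so, and for 1 gene higher (Psmc3), where 7.58% did so.

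**Figure D2:**
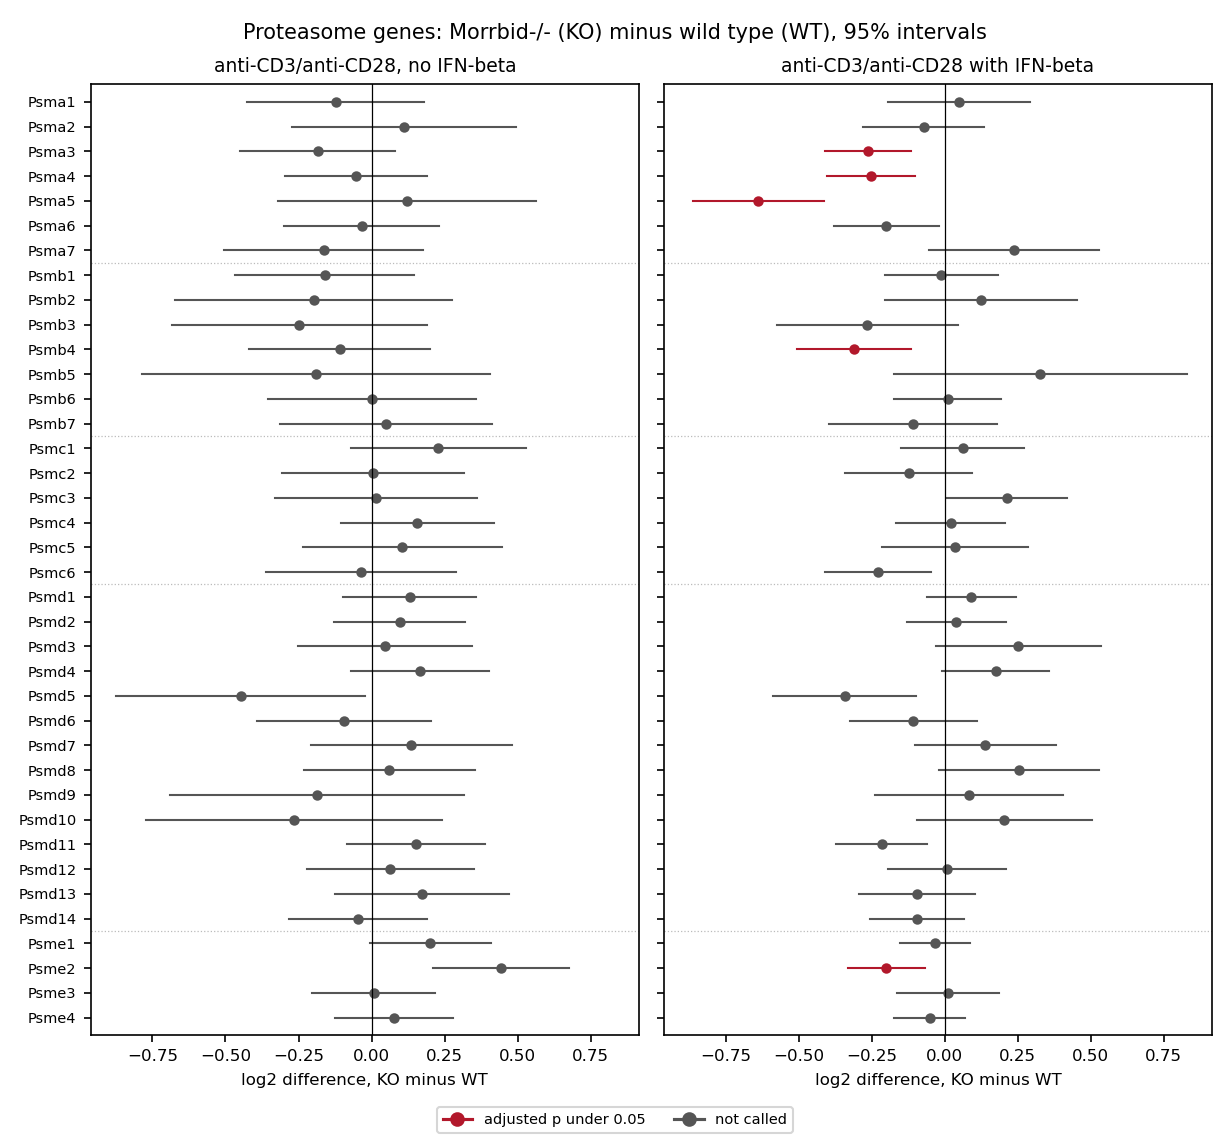
Difference between Morrbid-/- (KO) and wild type (WT) in log2(normalized count + 1) for the 38 tested proteasome genes without IFN-beta (left) and with it (right); points are limma estimates, lines 95% intervals, red marks adjusted p under 0.05, and dotted lines part the classes. Psma3, Psma4, Psma5, Psmb4 and Psme2 are red with IFN-beta, all left of 0, and no gene is red without it.

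Among the alpha subunits, Psma5 (Entrez 26442, chr3:108256926-108279952) differed most. It stood at 191, 171, 267 and 212 normalized counts in Morrbid-/- libraries with IFN-beta, against 333, 332, 321 and 308 in wild type. Every Morrbid-/- library lay below every wild-type library. The means were 210.1 ± 41.3 and 323 ± 11.7 (SD over 4 libraries), and the log2 difference was -0.64 (SE 0.11, 95% interval -0.86 to -0.41, adjusted p = 3.45e-04). The call held under all 19 alternative settings, with adjusted p no higher than 0.0414. Of the 75-base stretches of Psma5 transcripts, 35.2% also occur in another gene, most in the pseudogene Gm8394, and 1700010K24Rik overlaps it on the opposite strand; the sources used here do not say how the counting treated such reads, and its level is therefore uncertain.

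Psma3 (Entrez 19167, chr12:70969283-70995877), another subunit of the alpha ring, stood at 859, 788, 793 and 903 normalized counts in Morrbid-/- libraries, against 1044, 908, 974 and 1088 in wild type. The groups did not overlap, though the highest Morrbid-/- library came close to the lowest wild-type one. The log2 difference was -0.26 (SE 0.07, adjusted p = 0.0179). Psma4 (Entrez 26441, chr9:54950781-54958034), whose yeast counterpart has a tail that closes the gate, stood at 834, 868, 820 and 878 in Morrbid-/- libraries, against 1156, 1010, 882 and 1021 in wild type. Here too the groups did not overlap, and the wild-type libraries were the more spread. The log2 difference was -0.25 (SE 0.07, adjusted p = 0.0272). The stretches shared with other genes were 14.3% for Psma3 and 7.29% for Psma4, and AY074887 overlaps Psma4 on the opposite strand.

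Of the 7 tested beta subunits, Psmb4 (Entrez 19172, chr3:94884324-94886958) passed. It is a beta subunit without a protease site of its own. It stood at 302, 275, 272 and 292 normalized counts in Morrbid-/- libraries, against 312, 323, 369 and 422 in wild type. The groups did not overlap, and wild-type library 4 was the highest by some distance. The log2 difference was -0.31 (SE 0.09, adjusted p = 0.0370), and Psmb4 shares no 75-base stretch with another gene. The subunits that hold the protease sites did not pass: Psmb6 (caspase-like) averaged 255 in Morrbid-/- and 253 in wild-type libraries, Psmb7 (trypsin-like) 101 and 109.9, and Psmb5 (chymotrypsin-like) 36.4 and 29.0. Their log2 differences were 0.01, -0.11 and 0.33, and the 95% interval of Psmb5 ran from -0.18 to 0.83. Of the 75-base stretches of Psmb5, 36.8% also occur in another gene, so its level is uncertain. The uncalled subunits of the alpha ring ranged from -0.20 (Psma6) to 0.24 (Psma7), and those of the beta ring from -0.26 (Psmb3) to 0.33 (Psmb5).

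Summed over the 14 listed core genes, the libraries with IFN-beta held 4060, 3803, 3901 and 4099 normalized counts in Morrbid-/- cells, against 4839, 4350, 4228 and 4698 in wild type. The sums did not overlap, but they include the 4 core genes called lower. Psma3 and Psma4 weigh most in them, at means of 835.9 and 849.7 in Morrbid-/- libraries, against 1003.5 and 1017.3 in wild type. The sums are thus no result apart from those calls, and a fall of the core as a whole was not tested. The median log2 difference of the core genes was -0.09, with 5 of 14 above 0.

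The regulatory particle gave no call among 20 tested genes, and its median log2 difference was 0.04, with 13 of 20 above 0. In the base, the ATPase with the smallest p was Psmc6, at 521, 429, 561 and 562 normalized counts in Morrbid-/- libraries, against 684, 575, 558 and 602 in wild type. One wild-type library lay within the Morrbid-/- range, and the log2 difference was -0.23 (adjusted p = 0.102). Psmc3, another ATPase, averaged 208 in Morrbid-/- libraries and 179.96 in wild type, a log2 difference of 0.21 (adjusted p = 0.186), although its libraries did not overlap. Psmd5, a chaperone of base assembly, had the smallest p of the 14 other genes. It stood at 104, 107, 116 and 128 in Morrbid-/- libraries, against 143, 168, 138 and 131 in wild type, without overlap. The log2 difference was -0.34 (adjusted p = 0.0698). Psmd11, a lid scaffold, had a log2 difference of -0.22 (adjusted p = 0.0728), also without overlap. By structure, none passed of 9 lid genes (median 0.01), of 4 non-ATPase base genes (0.07) or of 3 base assembly chaperones (0.08).

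The activators include Psme1 and Psme2, the alpha and beta subunits of PA28, Psme3, which forms the nuclear PA28 gamma ring, and Psme4, the single-chain activator PA200. Psme2 (Entrez 19188, chr14:55587440-55591101) stood at 1976, 1789.9, 2000.3 and 1918 normalized counts in Morrbid-/- libraries with IFN-beta, against 2424, 2280.4, 1966 and 2172 in wild type. Wild-type library 3 fell below 2 Morrbid-/- libraries, so the groups overlapped. The log2 difference was -0.20 (SE 0.06, adjusted p = 0.0490), the call nearest the threshold; it passed in 8 of 19 alternative settings. Of its 75-base stretches, 22.9% also occur in another gene, most in Psme2b, a retrogene copy, so its level is uncertain. Psme1 (Entrez 19186, chr14:55578494-55581527), a near neighbour of Psme2, stood at 7583, 8207, 8281 and 9162 in Morrbid-/- libraries, against 8802, 8791, 8007 and 8366 in wild type, with wide overlap. The log2 difference of Psme1 was -0.03 (95% interval -0.15 to 0.09). Psme3 stood at 516, 479, 435 and 427 in Morrbid-/- libraries and 517, 473, 433 and 419.9 in wild type, a log2 difference of 0.01 (95% interval -0.16 to 0.19). Psme4 stood at 1662, 1618, 1627 and 1576 in Morrbid-/- libraries and 1633, 1600.5, 1825 and 1669 in wild type, a log2 difference of -0.05 (95% interval -0.17 to 0.07).

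**Figure D3:**
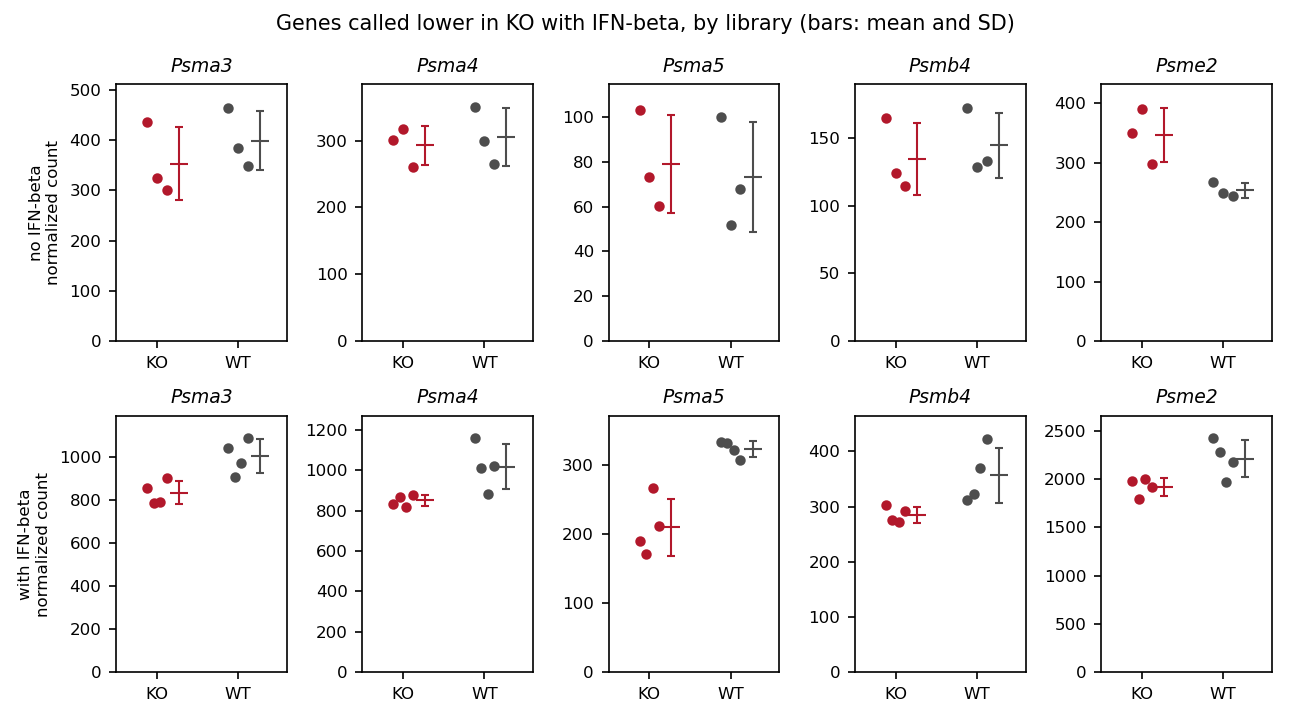
Normalized counts of the 5 genes called lower in Morrbid-/- cells with IFN-beta, without IFN-beta (top) and with it (bottom), for Morrbid-/- (KO) and wild-type (WT) libraries; points are libraries, bars mean and SD, and each axis starts at 0. In the bottom row the groups part for Psma3, Psma4, Psma5 and Psmb4 and overlap for Psme2, and in the top row Psme2 alone parts, with Morrbid-/- higher.

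Measures that moved with these calls were the library and the mitochondrial 16S ribosomal RNA share. With IFN-beta the 16S share was 9.05% to 9.84% in 3 Morrbid-/- libraries and 10.5% in the other, against 9.45% to 12.01% in wild type. With that share in the model, Psma5 alone of the 38 stayed called, and the calls over all genes went from 1005 to 749. Of these, 362 of 9964 genes tested were lower, so the share of proteasome genes was no higher than that of all genes. Wild-type library 1, which had the 12.01% share, was the highest of its group for 17 of the 38 genes (44.7%, against 25.4% of all genes), and Morrbid-/- library 4 likewise for 17 (44.7%, against 29% of all genes). Leaving out Morrbid-/- library 2 or 3 left Psma5 as the single call. Over all genes, 288 of 9969 were called lower without library 2 and 367 of 9973 without library 3. There too the share of proteasome genes was no higher than that of all genes. Without wild-type library 1 the calls were Psma5 and Psmb4, and without wild-type library 4 they were Psma5 and Psma4. Over all genes, 322 of 9969 and 466 of 9976 were called lower in these fits, in that order. Without Morrbid-/- library 1 or wild-type library 2 there were 3 calls, beside 427 of 9967 and 367 of 9972 lower over all genes. The part of the 16S share in these results was not tested beyond that fit.

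Without IFN-beta, no proteasome gene passed in either direction (limma, adjusted p under 0.05), where 0.538% of all genes were called higher and 0.0969% lower. Psme2 and Psmd5 had an unadjusted p under 0.05. The counts of calls by edgeR's quasi-likelihood test and by DESeq2 were also 0. The median log2 difference was 0.01, against -0.01 for all genes. The median SE of the 38 estimates was 0.15, and the outer ends of their 95% intervals were -0.88 (Psmd5) and 0.67 (Psme2). Psmc1, Psmc4 and Psme2 were higher without overlap, where 5.53% of all genes were; none were lower without overlap, where 5.39% of all genes were.

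Psme2 had the smallest p of the proteasome genes without IFN-beta. It stood at 351, 390.2 and 299 normalized counts in Morrbid-/- libraries, against 267, 249 and 245 in wild type. Every Morrbid-/- library was above every wild-type one, and the log2 difference was 0.44 (SE 0.11, adjusted p = 0.0901). Of the 6 fits that left out 1 library, 1 passed: the adjusted p was 0.0262 without Morrbid-/- library 3, the lowest of its group, and reached 0.87 without Morrbid-/- library 2, the highest. It was 0.00441 with the 16S share in the model. That share was 18.9%, 12.8% and 11.6% in Morrbid-/- libraries and 18.1%, 16.01% and 12.5% in wild type. Psme1, its PA28 partner, stood at 1158, 1046 and 995 in Morrbid-/- libraries, against 1032, 848 and 906 in wild type. These overlapped, with 1 wild-type library inside the Morrbid-/- range, and the log2 difference was 0.20 (95% interval -0.01 to 0.41). Psme3 stood at 349.7, 308 and 328 in Morrbid-/- libraries and 339, 314 and 326 in wild type, and Psme4 at 517, 587 and 542 in Morrbid-/- libraries and 501, 558 and 502 in wild type. Both overlapped, with log2 differences of 0.01 and 0.08.

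The core genes had a median log2 difference of -0.12 without IFN-beta, with 3 of 14 above 0, and the regulatory particle 0.06, with 14 of 20 above 0. The gene with the smallest p was Psma3 among the alpha subunits, at 436, 325 and 299.8 normalized counts in Morrbid-/- libraries, against 464, 385 and 348 in wild type (log2 difference -0.18). Among the beta subunits it was Psmb3, a structural subunit, at 51.7, 41.9 and 53.2 in Morrbid-/- libraries, against 80.4, 45.8 and 52.7 in wild type (log2 difference -0.25). Both overlapped, and wild-type library 1 was the highest for each. Among the ATPases, Psmc1 stood at 107, 144 and 112 in Morrbid-/- libraries, against 106, 96.8 and 104 in wild type (log2 difference 0.23). Psmd5 stood at 55.7, 45.8 and 39.9 in Morrbid-/- libraries, against 74.2, 74.9 and 47.4 in wild type (log2 difference -0.45, adjusted p = 0.778). For Psmd5, 1 wild-type library fell within the Morrbid-/- range. Library 1 was the highest of its group for 21 of the 38 genes in Morrbid-/- cells (55.3%, against 35.2% of all genes) and for 24 in wild type (63.2%, against 35.4%).

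The genes called with IFN-beta were also looked up without it. Psma5 stood at 103, 73.3 and 60.4 normalized counts in Morrbid-/- libraries, against 100.1, 52.0 and 68.0 in wild type, with full overlap and a log2 difference of 0.12. Psma4 stood at 301, 318 and 261 in Morrbid-/- libraries, against 351, 299.7 and 265 in wild type, and Psmb4 at 165, 124 and 115 against 172, 129 and 133. Their log2 differences were -0.05 and -0.11, and both overlapped.

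Whether the Morrbid-/- effect differed between the stimulations was tested in 1 fit over all 14 libraries, as the difference with IFN-beta minus the difference without it, each taken within its own table. Psme2 was the single proteasome gene called of 38, with a lower effect with IFN-beta. Of all genes, 0.892% were called lower and 0.441% higher in this test. The estimate for Psme2 was -0.64 (SE 0.12, 95% interval -0.89 to -0.39, adjusted p = 0.00279), from a difference of -0.20 with IFN-beta and 0.44 without. It passed in each of the 14 fits that left out 1 library. The unadjusted p was under 0.05 for 4 genes. Psma5 had the largest estimate, -0.76 (95% interval -1.28 to -0.24), but did not pass (adjusted p = 0.162); of the 14 fits that left out 1 library, 1 passed, without wild-type library 1 of the cells without IFN-beta (-1.01, adjusted p = 0.0211), and the adjusted p reached 0.375 without wild-type library 2 of those cells. Psmd11 had an estimate of -0.37 (adjusted p = 0.174) and Psme1 of -0.23 (adjusted p = 0.412).

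The ratio of Psme1 to Psme2 within a library, which no scaling between libraries can move, was 3.30, 2.68 and 3.33 in Morrbid-/- libraries without IFN-beta, against 3.86, 3.41 and 3.70 in wild type. The Morrbid-/- ratios were all below the wild-type ones. With IFN-beta it was 3.84, 4.59, 4.14 and 4.78 in Morrbid-/- libraries, against 3.63, 3.86, 4.07 and 3.85 in wild type. Here 1 Morrbid-/- library lay within the wild-type range and the other 3 above it. A ratio shows unequal change of the subunits and does not say which of them moved.

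**Figure D4:**
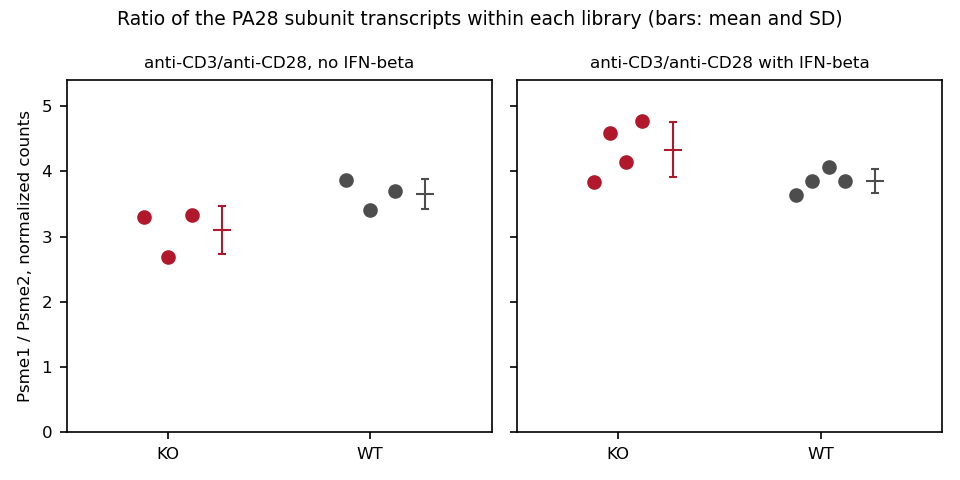
Ratio of Psme1 to Psme2 normalized counts within each library, for Morrbid-/- (KO) and wild-type (WT) libraries without IFN-beta (left) and with it (right); points are libraries, bars mean and SD. Without IFN-beta the Morrbid-/- ratios, 2.68 to 3.33, lie below the wild-type ratios, 3.41 to 3.86, and with it they run from 3.84 to 4.78, against 3.63 to 4.07.

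The tables were normalized separately, so levels across the stimulations were set side by side as CPM of the recovered reads and not tested. Psme1 averaged 1261 CPM in Morrbid-/- and 1254 in wild-type libraries with IFN-beta, beside 457 and 384 without. Psme2 averaged 292 CPM in Morrbid-/- and 326 in wild-type libraries with IFN-beta, beside 149 and 105 without. Psma5 averaged 31.9 and 47.7 with IFN-beta, beside 33.6 and 30.3 without, in the same order of genotypes. Summed over the listed proteasome genes, the level was 3314 CPM in Morrbid-/- and 3390 in wild-type libraries with IFN-beta, beside 2992 and 2779 without. The summed core genes were at 602 CPM in Morrbid-/- and 669 in wild-type libraries with IFN-beta, beside 729.8 and 750.5 without. Depth and whatever else parted the stimulations cannot be told apart from IFN-beta here.

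Genes that build, control or feed the proteasome were described by lists. The shares over all genes to read them against are 5.25% higher and 4.84% lower with IFN-beta. There, 1 of 5 core assembly chaperones fell: Pomp, the maturation factor of the core, averaged 188 ± 12.5 normalized counts in Morrbid-/- libraries and 243 ± 39.1 in wild type (SD over 4 libraries), and its log2 difference was -0.36 (adjusted p = 0.0371). The other chaperones, Psmg1 to Psmg4, had log2 differences between -0.41 and -0.20 and did not pass, and the list's median was -0.36. In the list of transcriptional control, 1 of 11 rose and 1 fell, or 9.09% each way (median 0.11). Nfe2l1, the factor that raises proteasome genes when the proteasome is blocked, averaged 610.4 ± 27.9 in Morrbid-/- libraries and 466 ± 29.5 in wild type, a log2 difference of 0.39 (adjusted p = 0.00104). Ngly1, the deglycosylase that acts on that factor, averaged 295 ± 14.6 in Morrbid-/- libraries and 377 ± 16.1 in wild type, a log2 difference of -0.35 (adjusted p = 0.00574). The libraries did not overlap for Pomp, Nfe2l1 or Ngly1. Pomp lost its call without Morrbid-/- library 1, 2 or 3 or wild-type library 1 or 4, with equal totals, without the trend and with the 16S share in the model, whereas Nfe2l1 and Ngly1 kept theirs under every alternative run.

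Among genes for ubiquitin, Ubb, a polyubiquitin gene, rose with IFN-beta. It averaged 939.6 ± 82.4 normalized counts in Morrbid-/- libraries and 659 ± 87.8 in wild type (SD over 4 libraries). The log2 difference was 0.52 (adjusted p = 2.30e-04), and the libraries did not overlap; without the mean-variance trend the adjusted p was 0.0504. Rps27a, which encodes ubiquitin fused to a ribosomal protein, averaged 2554 ± 282 in Morrbid-/- libraries and 3114 ± 471 in wild type; its log2 difference of -0.28 passed (adjusted p = 0.0384), although the libraries overlapped, and the call was lost on leaving out any of 6 of the 8 libraries. Of the 8 subunits of the CCT chaperonin, another ring-shaped machine, 4 fell and none rose (median -0.19), against 4.84% of all genes lower. Cct6a and Tcp1 lost their calls, leaving 2, without Morrbid-/- library 1 or 2 or wild-type library 1, with equal totals and with the 16S share in the model, and all 4 calls were lost without the mean-variance trend. Cct7 averaged 863 ± 23.0 in Morrbid-/- libraries and 1078 ± 69.5 in wild type, a log2 difference of -0.32 (adjusted p = 0.00215), and Cct4 and Cct6a had log2 differences of -0.32 and -0.23. None of the 3 immunoproteasome subunits passed (median -0.06): Psmb8 averaged 1259 in Morrbid-/- and 1318 in wild-type libraries, Psmb9 342 and 322, and Psmb10 413 and 432. None of 19 proteasome-associated factors passed (median -0.02); the smallest p was that of Ubqln4, a shuttle factor for ubiquitinated proteins, with a log2 difference of 0.23 (adjusted p = 0.136).

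Without IFN-beta, no gene of these lists passed. Nfe2l1 averaged 256 in Morrbid-/- and 271 in wild-type libraries, and Ubb 767 and 730.3. The immunoproteasome subunit Psmb9 stood at 36.5, 55.0 and 46.0 in Morrbid-/- libraries, against 33.1, 34.3 and 29.0 in wild type, a log2 difference of 0.48 (adjusted p = 0.775) without overlap. Psmb10 was also higher without overlap (log2 difference 0.32), whereas Psmb8 overlapped (0.09). Of all genes in that stimulation, 5.53% were higher without overlap. None of the listed genes was called in the test of the difference between stimulations, where Ngly1 had an estimate of -0.51 (adjusted p = 0.0857) and Nfe2l1 of 0.47 (adjusted p = 0.117).

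**Figure D5:**
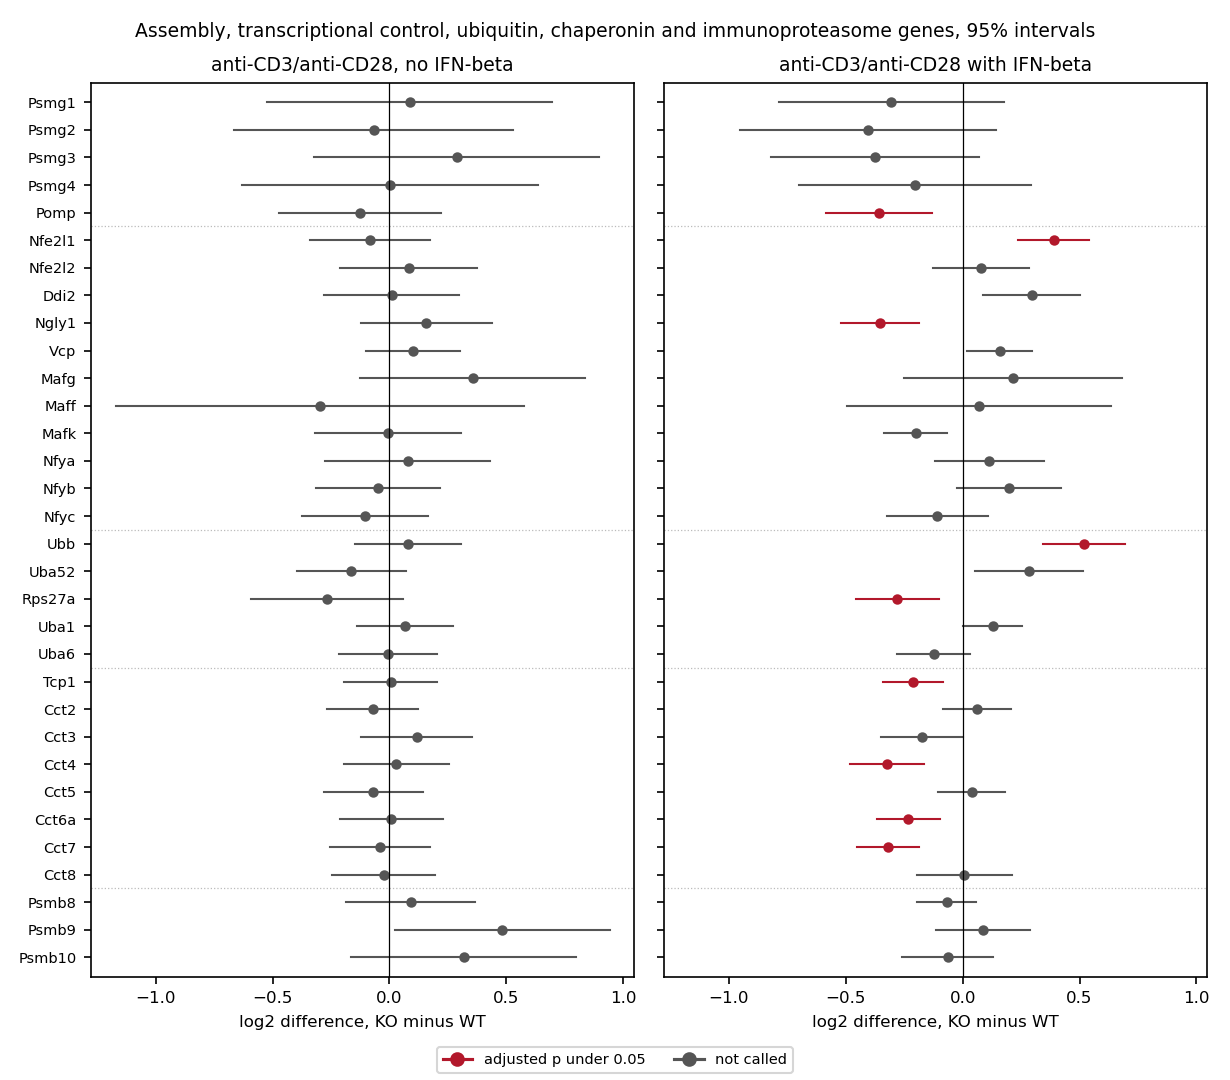
Difference between Morrbid-/- (KO) and wild type (WT) in log2(normalized count + 1) for genes of core assembly, transcriptional control, ubiquitin, the CCT chaperonin and the immunoproteasome, without IFN-beta (left) and with it (right); points are limma estimates, lines 95% intervals, and red marks adjusted p under 0.05. With IFN-beta, Nfe2l1 and Ubb are red to the right of 0 and Pomp, Ngly1, Rps27a, Tcp1, Cct4, Cct6a and Cct7 to the left, and nothing is red without it.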

How the data were processed

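RNA-seq of mouse CD8 T cells was analysed from 2 tables of normalized counts with 1 table a stimulation. The authors deposited the signal as read counts divided by 1 factor per library. Per the labels' protocols, 100 ng of total RNA went into each library with a stranded kit, read as paired 75-base reads. Per the submitters' processing notes, the builds were GRCm38 and mm10 and the tools Trimmomatic, STAR 2.5, DESeq2 and featureCounts; the annotation, the strand setting and each tool's role were not given in the sources used here. Dividing each library's values by its smallest step gave whole reads (tolerance 0.01) for 100% of values. Replicate pairs differed by more than counting error (chi-square per degree of freedom 1.81 to 8.46), so each library counted as 1 replicate.

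The test was limma 3.58.1 with a mean-variance trend on log2(normalized count + 1) over all genes with a mean of at least 10, per table (9290 genes without IFN-beta, 9964 with), Benjamini-Hochberg adjusted over all of them, and in 1 fit of all 14 libraries for the difference between stimulations (9078 genes). As alternatives, edgeR 4.0.16 on the recovered reads called 59 genes without IFN-beta and 1011 with it, and DESeq2 1.42.0 called 52 and 956. The script was tested on simulated data. Lengths, overlaps and shared 75-base stretches came from GENCODE M21 on GRCm38, and gene positions and promoters from RefSeq on GRCm38.p6. The proteasome genes and the other gene lists were chosen with earlier results of these data known. Values in every library are printed for the activators, for the genes past the threshold and, in a class without a call, for the gene with the smallest p; the rest are given by range and count, and of the other lists up to 3 genes that passed, or the one with the smallest p, are named. Beyond that rule, Psmc3, Psmd11, Psma6, Psma7, the subunits with protease sites, the immunoproteasome subunits, the Psmg genes and the values of listed genes without IFN-beta were chosen after their values were seen. Some genes of the lists are not reported here.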

Additional observations from a re-analysis of the deposited data

Results flagged for a closer look

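With IFN-beta, 4 proteasome genes had a library far from the others of its group, of 76 groups of 4 examined; chance marks about 1 in 20 such groups. Psmb1 was at 297 normalized counts in wild-type library 1, against 244, 249 and 252 in the others of that group. Psmb7 was at 143 in the same library, against 94.7, 99.3 and 103. Psmb5 was at 52.9 in Morrbid-/- library 4, against 30.6, 31.2 and 31.2. Psmd6 was at 208 in Morrbid-/- library 2, against 232, 232 and 236. None of these 4 genes was called in any comparison.

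The Morrbid-/- effect on Psme2 differed between the stimulations, by -0.64 on the log2 scale in the fit of all 14 libraries.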

How the results depend on the processing

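No call turned its direction. Without IFN-beta, 0 proteasome genes were called; the replicate block gave 1, the 16S share as a covariate 1, and leaving out 1 library 0 to 1, each time Psme2. With IFN-beta, 5 were called; equal totals gave 2, no mean-variance trend 1, the 16S covariate 1 and leaving out 1 library 1 to 4. For the difference between stimulations, 1 was called; no trend gave 0, the replicate block 2 and leaving out 1 library 1 to 2. The pseudocounts of 0.5 and 5, the mean of at least 50, TMM, edgeR and DESeq2 kept these counts, and no filter gave 4 with IFN-beta. The labels do not say whether the replicate numbers pair the samples, so the main fits took them as unpaired. With IFN-beta, correlations of deviations were 0.0033 to 0.141 for same-numbered libraries of the genotypes and -0.0794 to 0.037 for unlike numbers. Without it they were -0.021 to 0.204 and -0.2 to 0.0595. Same-numbered libraries thus tended to be the more alike, and pairing remains possible. The block raised the calls with IFN-beta to 7 (Psmc6 and Psmd11 added), and the calls over all genes to 169, against 59, without IFN-beta, to 1421, against 1005, with it and to 311, against 121, for the difference. No trend gave 17, 305 and 66 in the same order. The 16S covariate gave 103 without IFN-beta and 749 with it. Leaving out Morrbid-/- library 2 gave 39 without IFN-beta and 609 with it. Over single proteasome genes, 2269 of 2309 alternative results kept their side of the threshold, 7 gained and 33 lost a call, and 134 changed sign with no call in either. The causes were not tested. Depth was lower without IFN-beta, where the median SE of a proteasome gene was 0.15, against 0.10 with it.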
